A study of Mus musculus with 60 samples.

Results

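The presynaptic vesicle release genes are 37 named genes whose products hold, dock, prime, fuse and recover synaptic vesicles. They were taken by symbol from a deposited table of 47643 gene symbols, and a member was kept if its mean level over all libraries was at least 1 TPM (a read count divided by transcript length and scaled to the same total in every library). All 37 were kept, the lowest being Syn3 with a mean of 2.42 TPM, and all 37 are among the 15608 genes that were tested. The 60 libraries were poly(A) RNA-seq of hippocampus from female mice aged 2 months. CAC mice had received melanoma cells of a cachectic kind, which make the host waste, NCAC mice had received melanoma cells of a kind that does not, and Con mice had a mock injection. Tissue was taken 2, 4, 6 or 8 weeks (wk) after injection, which gave 12 groups. CAC had 4, 5, 5 and 7 libraries at these times, NCAC had 5, 5, 4 and 5, and Con had 5 at each. The sample labels give the strain of every mouse as C57BL6/J, whereas the series description gives NCI Ath/nude. The melanoma lines are not named in the labels, nor do the labels state whether every library comes from its own mouse, so p-values here cover only the spread among the samples.

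Release of transmitter runs through a fixed sequence of protein machines. Vesicles filled by transporters are held near the membrane by synapsins, brought to the active zone by Rab3 and RIM, primed by Munc13 proteins and fused by the SNARE complex when synaptotagmin binds calcium. Their membrane is then retrieved with the help of the lipid phosphatase synaptojanin. Their mRNA sits mainly in neuronal cell bodies, in the hippocampus those of pyramidal cells, granule cells and interneurons, while the proteins work at the terminals. In such bulk samples, fewer cells of a type and less RNA per cell cannot be told apart.

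Library depth was 32388193 to 42046784 recovered reads, and the 9 markers of hippocampal excitatory neurons were detected in every library, from 28.4 TPM for Grik4 at its lowest to 2090 TPM for Camk2a at its highest. A set of 6 libraries stood apart on striatum or haemoglobin genes, taken here as a mean log2 level more than 1.5 above the median library on either list. By the same measure CAC 2 wk replicate 4 (1.57) and NCAC 4 wk replicate 3 (1.72) were past 1.5 on choroid plexus genes, and they were not counted among the 6. CAC 2 wk replicate 1, one of the 6, was also past 1.5 on thalamus genes (1.98), the only library past it on that list. Genes typical of striatum were high in CAC 2 wk replicate 1, CAC 4 wk replicates 1 and 4 and Con 4 wk replicate 2. Haemoglobin genes were high in CAC 4 wk replicates 1 and 2 and in CAC 8 wk replicate 3. Libraries also differed in how reads were spread over long and short and over GC-rich and GC-poor transcripts. The 5 Con 8 wk libraries had the lowest length slopes as a group, -0.106 to -0.0914 per doubling of length. Con 2 wk replicate 4 (-0.101) and NCAC 4 wk replicate 3 (-0.0971) lay within that range. For members called between injection groups, the correlation of level with the length slope is given with the member or with transcript composition below. The part of length and GC content in the results was not tested.

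The members spanned a wide range of levels. On the TPM scale, which is per length, the highest were Cplx2 at a mean of 1272 TPM, Snap25 at 1196 TPM and Slc17a7, the vesicular glutamate transporter VGLUT1, at 1144 TPM. The lowest after Syn3 were Otof at 5.91 TPM, Doc2a at 13.4 TPM, Unc13b at 15.3 TPM and Sv2c at 15.5 TPM. By role, the 6 SNARE proteins and complexins had mean levels of 50.7 to 1272 TPM and the 6 vesicle membrane proteins 15.5 to 1144 TPM. The 8 members listed as calcium sensors had 5.91 to 703 TPM and the 8 active zone proteins 15.3 to 148.5 TPM. Several were unusually steady between libraries of one group. The within-group SD of Snap25 was 0.064 on the log2 scale, lower than that of all but 0.7% of tested genes, and that of Vamp2 was 0.079. Sv2c and Otof varied most, with SDs of 0.39 and 0.29.

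In the hippocampus of CAC mice, members that passed the test against either other group were mostly higher, and by small amounts. The clearest was Bzrap1, which encodes RIM-binding protein 1, a link between RIM and calcium channels at the active zone: 1.23-fold higher in CAC than in Con at 8 wk (n = 7 and 5). At 8 wk, 8 of 37 members were higher in CAC than in Con and none lower, the others being Syt1, Nrxn3, Synj1, Sv2b, Snap25, Vamp1 and Erc2. Averaged over the 4 times, Bzrap1, Vamp1, Rims2, Otof, Syt7, Syt1, Nrxn3 and Synj1 were higher in CAC than in Con. With median-of-ratios scaling or voom, Unc13a, Rab3c and Syt5 were also called in that average, lower in CAC. In the average against NCAC, Bzrap1, Rims2, Vamp1, Otof, Nrxn3 and Synj1 were higher and Unc13a was lower in CAC. Those comparisons share the CAC libraries, so they are not independent of each other. NCAC against Con gave no called member at any time.

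Those counts stand against a background of all genes tested with the same limma model and Benjamini-Hochberg adjustment over 15608 genes (called means adjusted p under 0.05). In CAC against Con, 1 member was called at 2 wk, where 3.7% of all genes were. None was called at 4 wk (0.801% of all genes) or at 6 wk (0.25%). At 8 wk the 8 called members were 21.6% of the 37, beside 14.5% of all genes, of which 1757 were higher and 499 lower (664 and 739 with median-of-ratios scaling, under which 4 members were called, all higher). In CAC against NCAC, no member was called at 2 wk (0% of all genes), 2 at 4 wk (0.0128%), none at 6 wk (1.77%) and none at 8 wk (1.83%). For the mean of the 4 times, 8 members (21.6%) were called in CAC against Con, beside 19.8% of all genes (2323 higher and 772 lower). With median-of-ratios scaling these were 11 members (8 higher, 3 lower) and 16.6% of all genes (1317 higher and 1279 lower). In CAC against NCAC, 7 members (18.9%) were called in the mean, beside 15.7% (1804 higher and 642 lower, or 1187 and 1058 with that scaling). In NCAC against Con, 0 members and 0% of all genes were called at 2 wk, 4 wk, 6 wk, 8 wk and in the mean (0% each). The change of the CAC minus Con difference from 2 to 8 wk called no member and 0.00641% of all genes, which is 1 gene. In the control mice, 8 wk against 2 wk, 4 members (10.8%) were called beside 9.67% of all genes (261 higher and 1248 lower, or 505 and 481 with median-of-ratios scaling). The shares of members called in the means and in the Con time comparison are near those of all genes. At 8 wk the members' share was the higher on the deposited values, but not with the GC and length trend removed, where 8.11% of members and 9.4% of all genes were called. It was 10.8% beside 8.99% with median-of-ratios scaling, and 16.2% beside 15.1% with the trend and the 6 libraries that stood apart both removed, where 4 members were higher and 2 lower (Sv2c and Unc13a). The 8 wk count is therefore not read as particular to the members.

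Where limma called no member, some had an unadjusted p under 0.05. In CAC against Con these were 9 at 4 wk (6 higher, 3 lower), where 17.9% of all genes had such a p, and 6 at 6 wk (3 higher, 3 lower; 12.1% of all genes). In CAC against NCAC they were 2 at 2 wk (6.94% of all genes), 7 at 6 wk (5 higher, 2 lower; 18.9%) and 6 at 8 wk (all higher; 15.5%). In NCAC against Con they were 1, 5, 1 and 2 at 2, 4, 6 and 8 wk and 2 in the mean, beside 9.72%, 9.85%, 3.76%, 7.85% and 2.43% of all genes. For the change from 2 to 8 wk there was 1, Bzrap1, beside 9.64% of all genes. A second tool, voom with limma on the recovered reads, called 1 member in CAC against Con at 4 wk (Rab3c, lower) and no member in the other comparisons of this paragraph.

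**Figure D1:**
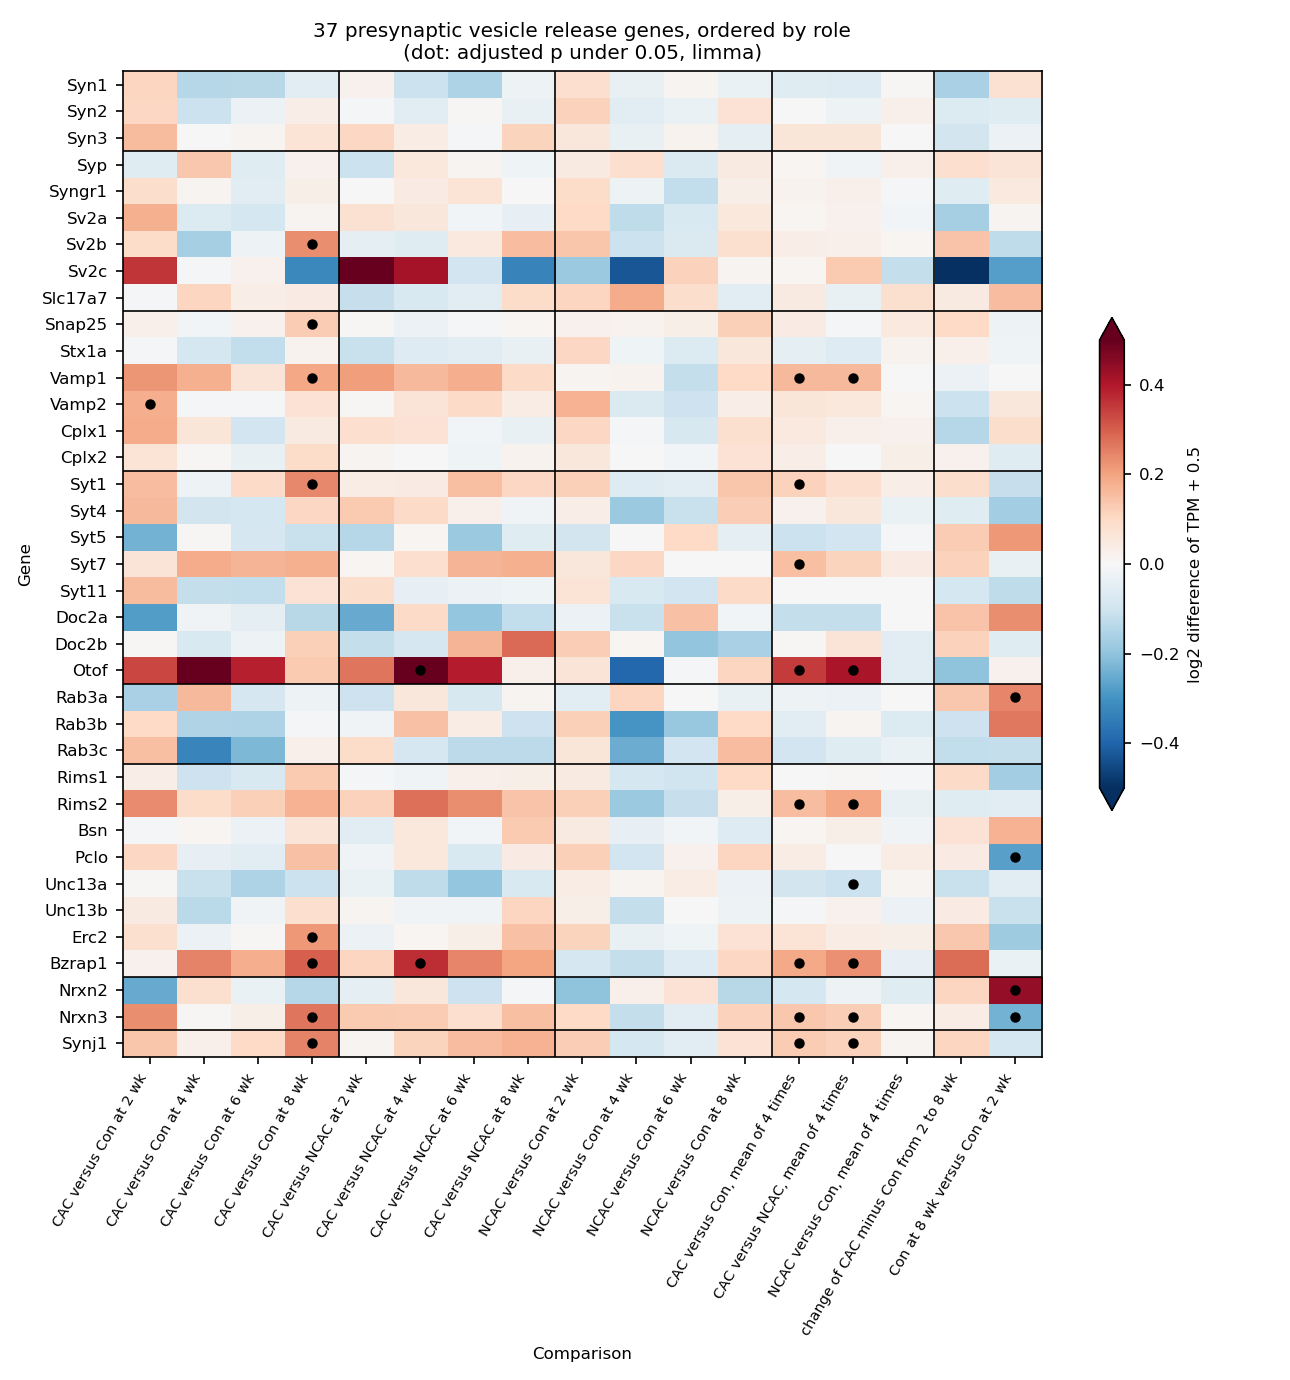
Log2 difference of each of the 37 members (rows, ordered by role) in each comparison (columns), with colour limited to 0.5 in either direction and a dot where the adjusted p was under 0.05. Dots gather in the CAC against Con column at 8 wk and in the 2 columns for the mean of the 4 times, and the NCAC against Con columns hold none.

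For the members present in RefSeq's promoter table for GRCm38.p6, the DNA before the start site was read to show what these genes share besides their function. The table held 25 of the 37 member genes, with 34 promoters. Of members called in a comparison, Bzrap1, Otof, Rims2, Syt7, Snap25, Vamp2 and Nrxn2 had no entry. Over the 250 bases before the start, member promoters had a median GC content of 59.4%, against 52.4% for all 32851 promoters in the table. The GC box, GGGCGG on either strand, was in 19 of 34 member promoters (55.9%) and in 32.74% of all. The palindromic E-box CACGTG was in 2 member promoters (5.9%), against 6.02% of all. TATAAA, searched on both strands, was in 3 (8.8%), against 12.37%. The Syn1 promoter alone of the 34 (2.9%) held TTCAGCACC, the left part of the RE1 element bound by the repressor REST. That sequence was in 0.3% of all promoters. The cyclic AMP element TGACGTCA was also found in Syn1 alone of the members (2.9% of member promoters), against 1.55% of all. A match describes letters only and shows no binding.

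Syt1 and Synj1 had the levels that went together most closely over libraries, and Vamp1 and Unc13a were called in opposite directions. Syn1, called in no comparison, carries the RE1 part. Promoter stretches are shown for these 5 members. Each is written 5′ to 3′ on the strand of the gene, in lower case, with GC boxes (GGGCGG or its reverse complement CCGCCC) or the RE1 left part in capitals. The first 4 are the 250 bases before a RefSeq start, and that of Syn1 is the 164 bases of such a window that lie outside the annotated gene.
Syt1 (chr10:109010976-109011225, minus strand): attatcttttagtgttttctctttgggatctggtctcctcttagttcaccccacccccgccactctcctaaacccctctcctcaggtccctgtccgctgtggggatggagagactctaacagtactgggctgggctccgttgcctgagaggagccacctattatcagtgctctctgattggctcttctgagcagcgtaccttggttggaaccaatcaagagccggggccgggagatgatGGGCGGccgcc
Synj1 (chr16:91011309-91011558, minus strand): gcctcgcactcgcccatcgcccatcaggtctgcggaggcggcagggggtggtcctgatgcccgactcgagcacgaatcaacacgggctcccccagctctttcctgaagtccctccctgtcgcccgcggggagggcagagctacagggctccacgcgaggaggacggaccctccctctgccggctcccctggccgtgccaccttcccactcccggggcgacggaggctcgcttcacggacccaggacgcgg
Vamp1 (chr6:125215331-125215580, plus strand): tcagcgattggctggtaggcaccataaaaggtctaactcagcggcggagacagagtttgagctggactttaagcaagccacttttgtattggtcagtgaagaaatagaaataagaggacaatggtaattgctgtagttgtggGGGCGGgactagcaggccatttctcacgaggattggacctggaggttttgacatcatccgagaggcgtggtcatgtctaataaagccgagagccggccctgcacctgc
Unc13a (chr8:71671758-71672007, minus strand): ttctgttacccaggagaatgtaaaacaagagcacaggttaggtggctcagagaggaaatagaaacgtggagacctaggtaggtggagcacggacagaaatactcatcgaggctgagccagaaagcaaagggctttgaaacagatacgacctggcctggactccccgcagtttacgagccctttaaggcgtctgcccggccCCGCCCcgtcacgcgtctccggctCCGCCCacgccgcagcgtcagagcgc
Syn1 (chrX:20921005-20921168, minus strand): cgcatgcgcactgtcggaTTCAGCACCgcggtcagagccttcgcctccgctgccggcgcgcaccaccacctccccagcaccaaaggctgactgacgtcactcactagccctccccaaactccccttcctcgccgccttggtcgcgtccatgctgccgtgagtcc
The Syt1 stretch holds 1 GC box near its 3′ end, that of Vamp1 holds 1 and that of Unc13a holds 2, both on the opposite strand. The GC-rich Synj1 stretch, 71.2% GC, holds none, while a second Synj1 start in the table has 4 in its window. The RE1 part of Syn1 begins 232 bases before the start.

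Synapsins coat the vesicle and tie it to the cytoskeleton in the reserve pool. None of the 3 synapsins was called in any comparison, and Syn1 (chrX:20860511-20921004, GRCm38), the one with the smallest p at 8 wk, is given in full. At 2 wk, Syn1 was at 399.6, 469, 376 and 414 TPM in CAC, 387, 397, 376, 434 and 448 in NCAC, and 398, 391.9, 383, 375 and 374 in Con. At 4 wk, Syn1 was at 304, 387, 399.7, 333 and 462 TPM in CAC, 412, 396, 341, 435 and 434 in NCAC, and 447, 376, 427, 422 and 395 in Con. The groups overlapped at both times, and CAC 4 wk replicates 1 and 4, both high in striatum genes, were the lowest in their group. At 6 wk, Syn1 was at 352, 345, 445, 396 and 372 TPM in CAC, 461, 461, 371 and 406 in NCAC, and 413, 436, 438, 428 and 381 in Con. At 8 wk, Syn1 was at 356 to 432 TPM (median 391.9, n = 7) in CAC, 426, 410.5, 333, 402 and 416 in NCAC, and 396, 412, 406, 396 and 418 in Con. CAC and Con overlapped again, and the difference at 8 wk was -0.06 ± 0.073 (log2 scale, SE, adjusted p = 0.626). Syn2 differed by 0.04 and Syn3 by 0.07 at that time, neither past the test.

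Vesicle membrane proteins include synaptophysin, synaptogyrin, the SV2 glycoproteins and VGLUT1, which loads glutamate. Of these 6, only Sv2b was called, at 8 wk. Sv2b, the SV2 form found widely in forebrain excitatory terminals (chr7:75114894-75309262), was at 224 to 254 TPM (median 251, n = 7) in CAC, 231, 224, 211, 225 and 204 in NCAC, and 196, 196, 201, 220.1 and 222 in Con at 8 wk. Every CAC library was above every Con library, with the NCAC libraries between and overlapping both. Group means were 244 ± 12.3 TPM (SD, n = 7) and 207 ± 13.1 TPM (SD, n = 5), a difference of 0.23 ± 0.07 (log2 scale, SE, adjusted p = 0.0216). The earlier times showed no such separation. At 2 wk, Sv2b was at 225, 293, 239 and 212 TPM in CAC, 241, 274, 233, 245 and 252 in NCAC, and 237, 207, 233, 215 and 238 in Con. At 4 wk, Sv2b was at 207, 227, 233, 188 and 219 TPM in CAC, 224, 230, 183, 227 and 259.8 in NCAC, and 269.6, 199, 246, 248 and 244 in Con. At 6 wk, Sv2b was at 237, 220.3, 284, 230.5 and 234 TPM in CAC, 241, 251, 229.6 and 209 in NCAC, and 241, 256, 247, 250.5 and 228 in Con. All groups overlapped at these times, and in the 4 wk libraries the mean was lower in CAC than in Con by a difference that did not pass (log2 difference -0.17, SE 0.076, adjusted p = 0.232). The 8 wk call was lost without Con 8 wk replicate 1, 2 or 3 (adjusted p up to 0.062), with the GC and length trend removed (0.161) and with median-of-ratios scaling, voom or the replicate block. Syp, Syngr1, Sv2a and Slc17a7 differed at 8 wk by 0.02, 0.03, 0.01 and 0.04 on the log2 scale, with adjusted p of 0.838, 0.771, 0.917 and 0.753.

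Sv2c and Slc17a7 followed the striatum genes. Sv2c, the SV2 form enriched in basal ganglia, was at 24.3 to 47.3 TPM in the 4 libraries high in striatum genes and at 7.37 to 22.2 TPM (median 13.3) in the other 56, so that the ranges did not overlap. Slc17a7, which striatal neurons largely lack, was at 810.9 to 1009 TPM in those 4 and at 981.5 to 1377 TPM (median 1154) in the others. Over the 60 libraries, log2 levels correlated with the striatum genes at r = 0.85 for Sv2c and r = -0.69 for Slc17a7. Of the 4 libraries 3 are CAC, at 2 and 4 wk, and neither gene was called in any comparison. With the GC and length trend and the 6 libraries both removed, Sv2c was called lower in CAC at 8 wk, by 0.42 on the log2 scale against Con (adjusted p 0.0219). Without the 6 libraries that stood apart, the Sv2c difference in CAC against NCAC at 4 wk went from 0.41 to 0.01 on the log2 scale.

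**Figure D2:**
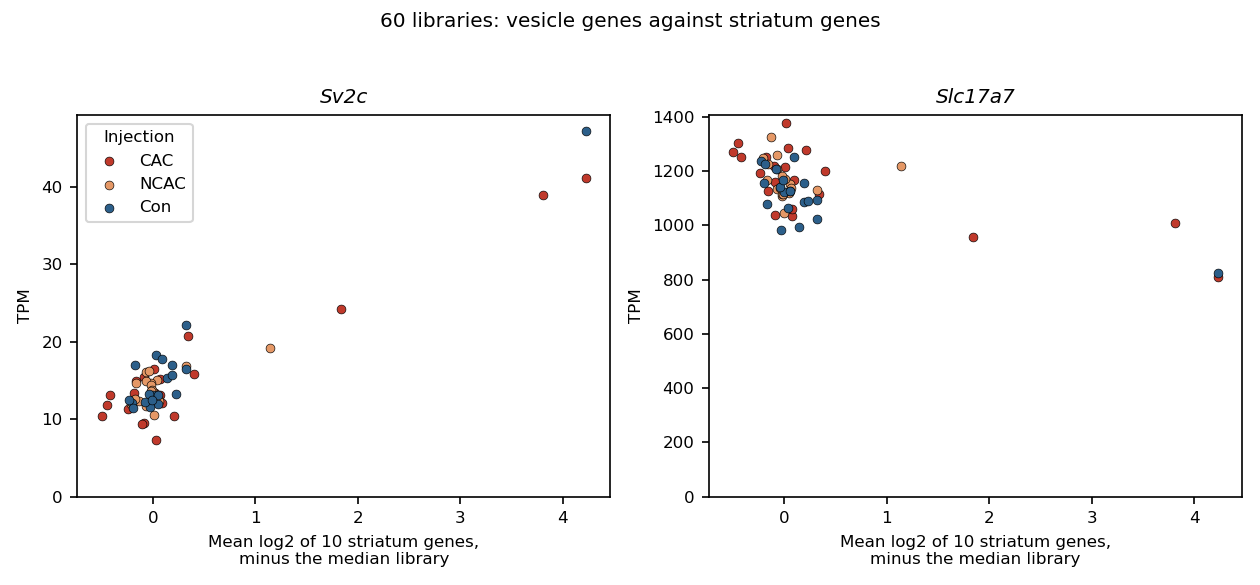
TPM of Sv2c and Slc17a7 (vertical axes) in each of 60 libraries against the mean log2 level of 10 striatum genes minus that of the median library (horizontal axis). The 4 libraries to the right of 1.5 hold the highest Sv2c values, 24.3 to 47.3 TPM, and low Slc17a7 values, 810.9 to 1009 TPM.

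Among the SNARE proteins and complexins, which form and regulate the fusion complex, all 6 had a positive CAC minus Con difference at 8 wk. Of all 15608 tested genes, 9534 also had a positive one. Of the 6, 2 were called there, Snap25 and Vamp1. Snap25, the plasma membrane SNARE (chr2:136713453-136782428), was at 1209 to 1287 TPM (median 1258, n = 7) in CAC, 1256, 1238, 1336, 1258 and 1138 in NCAC, and 1100, 1200, 1129, 1108 and 1198 in Con at 8 wk. CAC and Con did not overlap, and the NCAC range covered parts of both. The means were 1251 ± 30.6 TPM (SD, n = 7) and 1147 ± 48.5 TPM (SD, n = 5), with 0.13 ± 0.04 (log2 scale, SE, adjusted p = 0.0299). This is a difference of 1.09-fold in one of the steadiest genes of the table. At 2 wk, Snap25 was at 1180, 1241, 1165 and 1174 TPM in CAC, 1133, 1312, 1183, 1156 and 1156 in NCAC, and 1224, 1167, 1209, 1097 and 1148 in Con. At 4 wk, Snap25 was at 1125, 1267, 1208, 1106 and 1199 TPM in CAC, 1222, 1225, 1115, 1234 and 1229 in NCAC, and 1243, 1083, 1207, 1204 and 1216 in Con. At 6 wk, Snap25 was at 1260, 1178, 1211, 1172 and 1135 TPM in CAC, 1201, 1193, 1183 and 1215 in NCAC, and 1253, 1112, 1204, 1119 and 1188 in Con. The groups overlapped at each of these times. The NCAC mean at 8 wk was close to that of CAC, and CAC minus NCAC was 0.01 with an adjusted p of 0.946. With the GC and length trend removed the 8 wk difference fell from 0.13 to 0.01 (adjusted p 0.89). The call was lost in 6 of 12 other settings, among them median-of-ratios scaling and voom, and without CAC 8 wk replicate 2, 4 or 6 or Con 8 wk replicate 1, 3 or 4 (adjusted p up to 0.0889).

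Vamp1, or synaptobrevin 1 (chr6:125215551-125245964), is the vesicle SNARE that dominates in spinal cord and brainstem and is less abundant than Vamp2 in forebrain. Here its mean was 50.7 TPM beside 881.7 TPM for Vamp2. At 2 wk, Vamp1 was at 69, 50.2, 50.6 and 51.6 TPM in CAC, 44.7, 50.6, 44.4, 52.9 and 45 in NCAC, and 46.2, 44.8, 50.9, 45.1 and 48.1 in Con. At 4 wk, Vamp1 was at 49.4, 54.4, 52, 57 and 55.8 TPM in CAC, 50, 48.4, 46.1, 46.5 and 48.8 in NCAC, and 48.3, 41.6, 45.4, 50.1 and 52.4 in Con. CAC replicate 1 at 2 wk, high in both striatum and thalamus genes, was far above its group. At 4 wk, CAC replicate 1 and Con replicate 2, also high in striatum genes, were the lowest of their groups. CAC replicate 4, high in them too, was the highest of its group. Over the 60 libraries, log2 Vamp1 levels correlated with striatum genes at r = 0.09 and with thalamus genes at r = 0.38. The part of either signal in the Vamp1 values was not tested. At 6 wk, Vamp1 was at 62.5, 56, 51.6, 54.3 and 51.8 TPM in CAC, 49.3, 49.6, 46.7 and 48.4 in NCAC, and 49.5, 53.5, 52.6, 51.7 and 56.2 in Con. At 8 wk, Vamp1 was at 48.2 to 58 TPM (median 55.7, n = 7) in CAC, 52.5, 48.9, 55.3, 50.2 and 46.1 in NCAC, and 42.8, 50.2, 45.9, 44.8 and 52.1 in Con. CAC lay above NCAC without overlap at 6 wk, and every other pair overlapped. Averaged over the 4 times, Vamp1 was higher in CAC than in Con (log2 difference 0.16, SE 0.034, adjusted p = 0.000623) and than in NCAC (log2 difference 0.16, SE 0.034, adjusted p = 0.0012), while NCAC and Con differed by 0.003. At 8 wk alone CAC minus Con was 0.19 ± 0.062 (log2 scale, SE, adjusted p = 0.0307). The means held in every fit that left out 1 library. They were lost when the GC and length trend and the 6 libraries that stood apart were both removed (adjusted p 0.187 against Con and 0.163 against NCAC). The 8 wk call was lost without CAC 8 wk replicate 2, 4 or 6 or Con 8 wk replicate 1, 3 or 4 (up to 0.109), and in 5 of 12 other settings, among them median-of-ratios scaling, voom, the replicate block and removal of the GC and length trend (up to 0.258).

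Vamp2 (chr11:69088490-69092384), the main vesicle SNARE of forebrain terminals, was the single member called in CAC against Con at 2 wk. At 2 wk, Vamp2 was at 943, 999, 857 and 908 TPM in CAC, 871, 982, 897, 949 and 915 in NCAC, and 860.4, 863, 809.7, 754 and 801 in Con. CAC overlapped Con, and the NCAC libraries, which had nearly the same mean as CAC, lay above all Con libraries. The test gave 0.18 ± 0.055 (log2 scale, SE, adjusted p = 0.0491) for CAC minus Con, 0.17 with an adjusted p of 0.43 for NCAC minus Con, and 0.01 for CAC minus NCAC. At 4 wk, Vamp2 was at 753, 894, 911, 898 and 982 TPM in CAC, 877, 831, 742, 887 and 896 in NCAC, and 962, 841, 910.2, 882 and 848 in Con. At 6 wk, Vamp2 was at 872, 855, 977, 952 and 894 TPM in CAC, 882, 892, 809.5 and 822 in NCAC, and 917, 919, 914, 925 and 897 in Con. At 8 wk, Vamp2 was at 838 to 959.8 TPM (median 895, n = 7) in CAC, 889, 878, 845, 870.3 and 865 in NCAC, and 843, 865, 868, 824 and 849 in Con. CAC and Con overlapped at all 3 later times. The 2 wk call was lost without CAC 2 wk replicate 1 or 2 or Con 2 wk replicate 3, 4 or 5 (adjusted p up to 0.219) and in 10 of 12 other settings. Stx1a, Cplx1 and Cplx2 were called in no comparison.

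Calcium sensors of release are mostly synaptotagmins and related double C2-domain proteins. The 8 members listed under this role were grouped by name, and whether each senses calcium was not examined. Of these 8, 1 was called in CAC against Con at 8 wk (Syt1) and 1 in CAC against NCAC at 4 wk (Otof). In the CAC against Con mean 3 were called (Syt1, Syt7 and Otof). Syt1, the sensor for fast synchronous release (chr10:108497650-109010982), was at 684 to 779.6 TPM (median 730.3, n = 7) in CAC, 697, 686, 729, 680.2 and 617 in NCAC, and 596, 638, 613, 616 and 629 in Con at 8 wk. Every CAC library was above every Con library. Means were 732 ± 38.4 TPM (SD, n = 7) in CAC, 682 ± 40.9 TPM (SD, n = 5) in NCAC and 618 ± 15.9 TPM (SD, n = 5) in Con, and CAC minus Con was 0.24 ± 0.06 (log2 scale, SE, adjusted p = 0.00783). At 2 wk, Syt1 was at 704, 865, 728 and 699 TPM in CAC, 683, 815, 672, 744 and 731 in NCAC, and 702, 681, 676, 634 and 660.4 in Con. At 4 wk, Syt1 was at 629.9, 749.5, 710.5, 714 and 728 TPM in CAC, 719, 671, 586, 692 and 776 in NCAC, and 769, 618, 719, 754 and 739.5 in Con. At 6 wk, Syt1 was at 743, 685, 789, 756 and 773 TPM in CAC, 712, 718, 618 and 652 in NCAC, and 736, 732, 724, 724 and 599 in Con. The groups overlapped at these times. In the mean of the 4 times Syt1 was higher in CAC than in Con (log2 difference 0.12, SE 0.032, adjusted p = 0.00916), a call that was lost with the GC and length trend removed and with 2, 4 and 6 wk alone (adjusted p up to 0.274). Syt1 stayed past the threshold at 8 wk in every fit that left out 1 library and in 11 of 12 other settings. The exception was removal of the GC and length trend, after which the difference was 0.12 (adjusted p 0.0681).

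Syt7 (chr19:10389090-10453180), a slower sensor with high calcium affinity that serves asynchronous release and facilitation, was called only in the mean of the 4 times. At 2 wk, Syt7 was at 226, 233, 227 and 238 TPM in CAC, 231, 229, 204, 243 and 240.3 in NCAC, and 234, 228, 229, 214 and 201 in Con. At 4 wk, Syt7 was at 189, 337, 254, 239.8 and 239.6 TPM in CAC, 243, 214, 224, 230.5 and 259 in NCAC, and 214, 200.2, 228, 228 and 219 in Con. No group stood apart at these times. At 6 wk, Syt7 was at 271, 231, 253, 245 and 237 TPM in CAC, 248, 203, 197 and 234 in NCAC, and 216, 215, 214, 225 and 228 in Con. At 8 wk, Syt7 was at 217 to 274 TPM (median 252, n = 7) in CAC, 226, 197, 230.1, 223 and 202 in NCAC, and 212, 235, 213, 218 and 199 in Con. All CAC libraries at 6 wk were above all Con libraries, and the 8 wk ranges overlapped. The CAC minus Con differences at 2, 4, 6 and 8 wk were 0.07, 0.19, 0.17 and 0.18, and their mean passed (log2 difference 0.15, SE 0.039, adjusted p = 0.00595). Against NCAC the mean was 0.11 ± 0.04 (log2 scale, SE, adjusted p = 0.0518), which did not pass. Removing the GC and length trend left the Con comparison at 0.15 and still called, and it was lost with 2, 4 and 6 wk alone (0.0787).

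Otof encodes otoferlin (chr5:30367062-30461932), the calcium sensor of the ribbon synapses of cochlear hair cells, and is a low-abundance transcript in hippocampus. It and Bzrap1 were the 2 genes called among all 15608 in CAC against NCAC at 4 wk. Members were chosen with earlier results of these data known, so this is not read as a result about the members. At 4 wk, Otof was at 10.9, 8.12, 6.53, 11.1 and 8.32 TPM in CAC, 4.71, 4.95, 4.16, 4.34 and 3.72 in NCAC, and 6.35, 6.43, 4.32, 7.13 and 5.54 in Con. Every CAC library was above every NCAC library, and Con lay between, overlapping both. The means were 8.99 ± 1.96 TPM (SD, n = 5) and 4.38 ± 0.478 TPM (SD, n = 5), 1.92-fold higher in CAC (log2 difference 0.94, SE 0.18, adjusted p = 0.0442), and against Con the difference was 0.55 ± 0.18 (log2 scale, SE, adjusted p = 0.0992). CAC 4 wk replicates 1 and 4, the highest, are 2 of the libraries high in striatum genes. Con 4 wk replicate 2, with as strong a striatum signal as CAC replicate 1, was at 6.43 TPM, in Con below only replicate 4 (7.13 TPM). Over the 60 libraries, the log2 level of Otof correlated with the striatum genes at r = 0.33 and with the hippocampal excitatory markers at r = -0.41. CAC replicates 3 and 5, which did not stand apart on any marker list used for this, were at 6.53 and 8.32 TPM, above all 5 NCAC libraries. The striatum genes as a list were higher too in this comparison, 10 of 10 positive with a median of 1.04 and none called. The part of the striatum signal in the Otof difference was not tested. The call was lost without CAC 4 wk replicate 2 or 4, without any 1 of the NCAC 4 wk replicates (adjusted p up to 0.374), with thalamus and striatum levels as covariates (0.102) and without the 6 libraries that stood apart, where the difference was 0.70 (adjusted p 0.916).

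At the other times Otof differed less. At 2 wk, Otof was at 6.2, 5.7, 5.79 and 8.37 TPM in CAC, 4.92, 5.27, 5.13, 5.5 and 5.49 in NCAC, and 4.14, 5.8, 5.19, 5.74 and 4.37 in Con. At 6 wk, Otof was at 7.13, 8.7, 4.69, 7.76 and 7.98 TPM in CAC, 4.03, 7.15, 6.59 and 4.11 in NCAC, and 5.37, 7.22, 5.31, 5.23 and 3.92 in Con. At 8 wk, Otof was at 3.52 to 8.06 TPM (median 5.58, n = 7) in CAC, 6.05, 5.23, 7.51, 5.31 and 4.01 in NCAC, and 4.68, 4.87, 4.52, 6.76 and 4.88 in Con. CAC was above NCAC without overlap at 2 wk, and all groups overlapped at 6 and 8 wk. CAC minus NCAC was 0.27, 0.94, 0.39 and 0.02 on the log2 scale at 2, 4, 6 and 8 wk, and the difference between these times was not tested. Averaged over the 4 times, Otof was higher in CAC than in NCAC (log2 difference 0.41, SE 0.091, adjusted p = 0.00207) and than in Con (log2 difference 0.35, SE 0.09, adjusted p = 0.00487). The NCAC comparison passed in all 13 other settings and in all 40 fits that left out 1 library. The Con comparison was lost in 1 setting, with the GC and length trend and the 6 libraries both removed (adjusted p 0.0769). The other members listed under this role, Syt4, Syt5, Syt11, Doc2a and Doc2b, were called in no comparison. Syt5 was, however, lower in CAC than in Con in the mean with median-of-ratios scaling (log2 difference -0.14, adjusted p 0.0212). Doc2b, a sensor linked to spontaneous release, came nearest in CAC against NCAC at 8 wk, at 81.7 ± 10.2 TPM (SD, n = 7) and 66.8 ± 6.68 TPM (SD, n = 5) (log2 difference 0.28, SE 0.087, adjusted p = 0.0697).

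**Figure D3:**
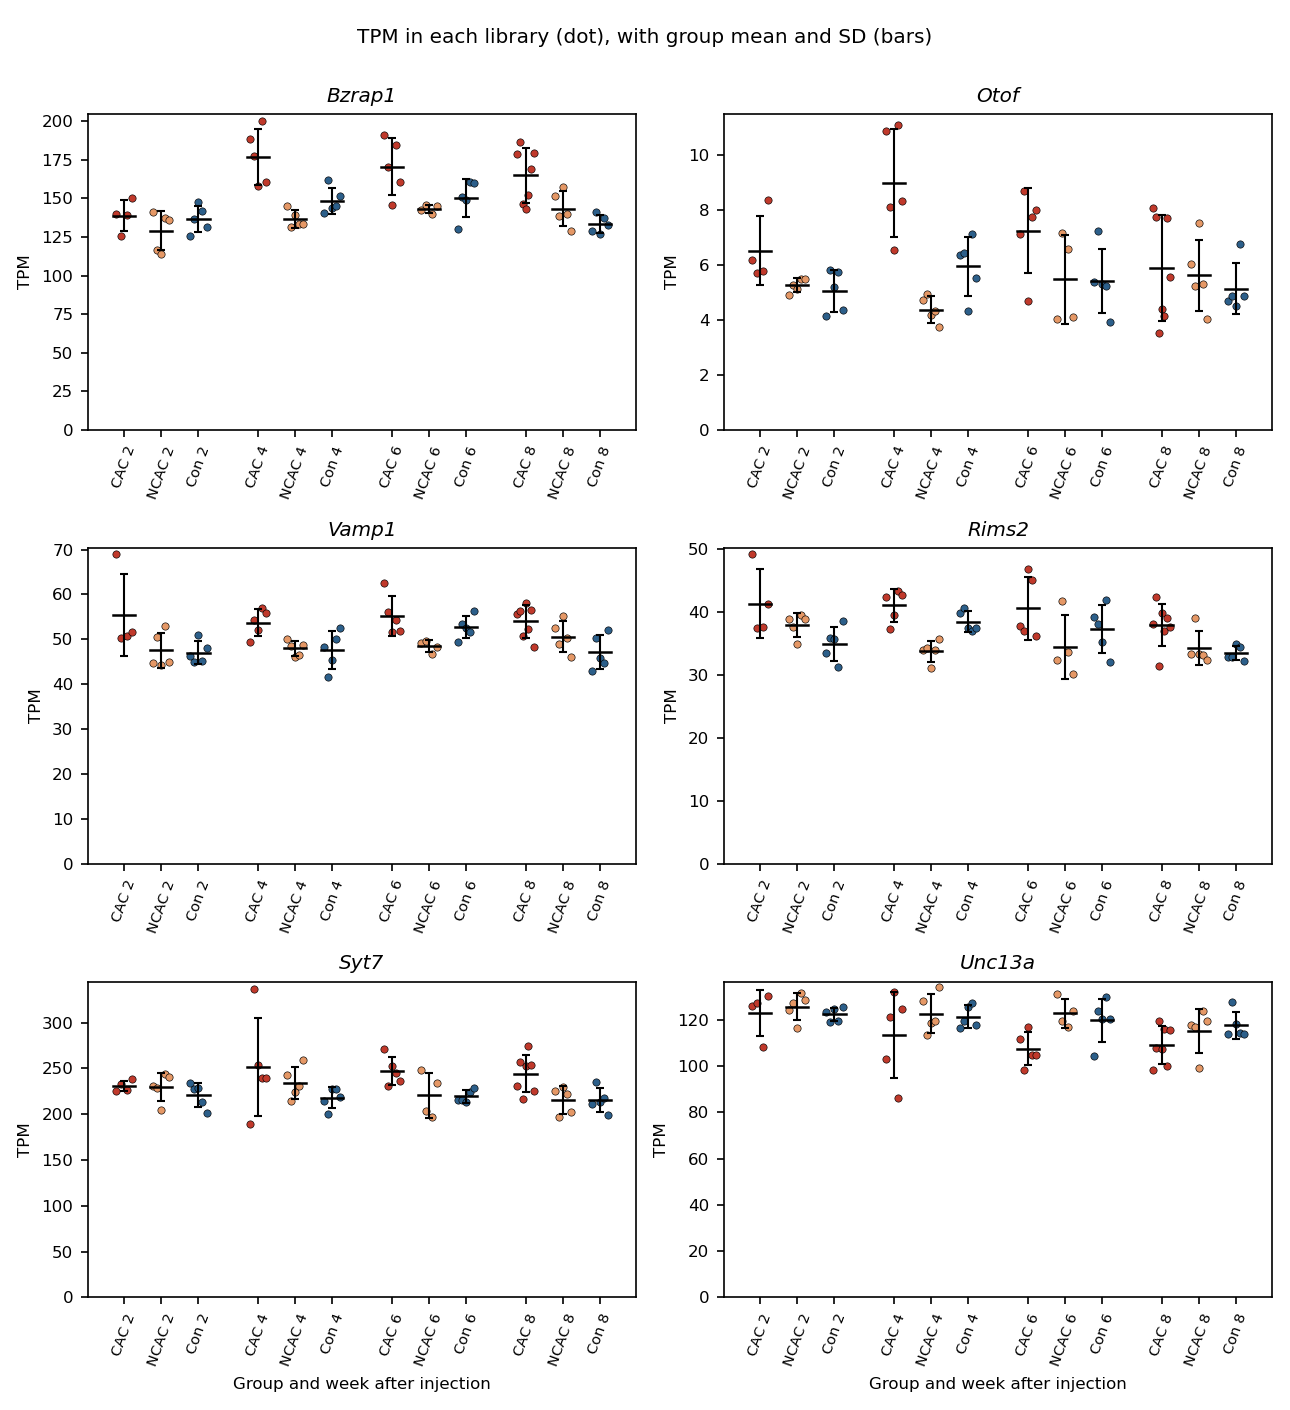
TPM (vertical axes, starting at 0) of Bzrap1, Otof, Vamp1, Rims2, Syt7 and Unc13a in each library of the 12 groups (points), by weeks after injection, with group means and SDs as bars. CAC points for Otof at 4 wk, 6.53 to 11.1 TPM, lie above all NCAC points, 3.72 to 4.95 TPM, and CAC points for Bzrap1 lie above all Con points at 8 wk.

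The Rab3 GTPases ride on the vesicle and bind RIM. None of the 3 was called between injection groups. Rab3a (chr8:70754679-70758677), the most abundant, was higher in Con at 8 wk than in Con at 2 wk. At 2 wk, Rab3a was at 400.4, 409, 388 and 494 TPM in CAC, 469, 354, 441, 539.7 and 483 in NCAC, and 451, 431, 483, 525 and 469.8 in Con. At 8 wk, Rab3a was at 495 to 619 TPM (median 545, n = 7) in CAC, 563, 567, 527, 536 and 527 in NCAC, and 537, 572, 549.6, 564 and 573 in Con. Every Con library at 8 wk was above every Con library at 2 wk (log2 difference 0.25, SE 0.078, adjusted p = 0.037). At 4 wk, Rab3a was at 425, 511, 538, 532 and 529.7 TPM in CAC, 461, 506, 487, 532 and 450.1 in NCAC, and 469, 418, 496, 426 and 451 in Con. At 6 wk, Rab3a was at 529, 465, 424, 557 and 462 TPM in CAC, 500.2, 486, 505 and 564 in NCAC, and 486, 503, 514, 483 and 590 in Con. The injection groups overlapped at all 4 times. Rab3a is a GC-rich, short transcript (56.2% GC, 2226 bases), its log2 level over the 60 libraries correlated with each library's GC slope at r = 0.84, and with the GC and length trend removed the time difference was 0.19 (adjusted p 0.203). It was also lost in 8 of 10 fits that left out 1 library, those without Con 2 wk replicate 1, 2, 3 or 5 or Con 8 wk replicate 2, 3, 4 or 5 (up to 0.117). Rab3c (chr13:110054187-110280996) had the smallest p of any member in CAC against Con at 4 wk, with 190.1 ± 23.8 TPM (SD, n = 5) and 239 ± 29.1 TPM (SD, n = 5) (log2 difference -0.33, SE 0.09, adjusted p = 0.0562), and was called lower there with median-of-ratios scaling (adjusted p 0.0422) and with voom (0.0454). The NCAC mean was also below that of Con at 4 wk (log2 difference -0.25, SE 0.09, adjusted p = 0.371), and at 8 wk CAC minus Con was 0.03.

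Active zone proteins form the scaffold at which vesicles dock and are primed. Of the 8, Bzrap1 and Erc2 were called higher in CAC than in Con at 8 wk, Bzrap1 and Rims2 in both means, and Unc13a was the only member called lower in CAC in any comparison, although other settings also called Rab3c, Syt5, Syt11 and Sv2c lower. Bzrap1 is listed under that symbol in the deposited table and as Tspoap1 in the GENCODE annotation (chr11:87760541-87785928). At 2 wk, Bzrap1 was at 140.2, 126, 139 and 150.4 TPM in CAC, 142, 117, 114, 138 and 136 in NCAC, and 126, 137, 148, 142 and 131 in Con. The 3 groups overlapped there. At 4 wk, Bzrap1 was at 189, 178, 158, 200.3 and 160.4 TPM in CAC, 145, 131, 139, 134 and 134 in NCAC, and 140.5, 162, 144, 145 and 151 in Con. At 6 wk, Bzrap1 was at 191, 170.2, 146, 185 and 161 TPM in CAC, 143, 146, 139.9 and 145 in NCAC, and 130, 151, 149, 161 and 159.9 in Con. All CAC libraries were above all NCAC libraries at both times, at 6 wk only narrowly (lowest CAC 145.8 TPM, highest NCAC 145.5 TPM), while CAC and Con overlapped. At 8 wk, Bzrap1 was at 143 to 186 TPM (median 169, n = 7) in CAC, 152, 139, 157, 139.9 and 129 in NCAC, and 129, 141, 127, 137 and 133 in Con. Here CAC was above all Con libraries and overlapped NCAC.

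On the log2 scale CAC minus Con for Bzrap1 was 0.02, 0.25, 0.18 and 0.30 at 2, 4, 6 and 8 wk, with adjusted p of 0.892, 0.0681, 0.291 and 0.00405. CAC minus NCAC was 0.11, 0.37, 0.24 and 0.20, with adjusted p of 0.799, 0.0442, 0.078 and 0.108. The change of the CAC minus Con difference from 2 to 8 wk, 0.28 ± 0.1 (log2 scale, SE, adjusted p = 0.333), did not pass. Averaged over the times, Bzrap1 was at 162.8 TPM in CAC, 138.1 TPM in NCAC and 142.2 TPM in Con (means of the 4 group means), with 0.23 ± 0.037 (log2 scale, SE, adjusted p = 7.5e-05) for CAC minus NCAC and 0.19 ± 0.036 (log2 scale, SE, adjusted p = 0.000355) for CAC minus Con. The 8 wk call held in all 12 other settings and all 12 fits that left out 1 library, and removal of the GC and length trend left it at 0.25 (adjusted p 0.0139). The mean against NCAC passed in all 13 other settings, and that against Con in 12, being lost with the trend and the 6 libraries both removed (0.0548). The 4 wk call against NCAC was less firm. It was lost without CAC 4 wk replicate 2 or 4 or any 1 of the NCAC 4 wk replicates (adjusted p up to 0.374). Without the 6 libraries that stood apart the difference was 0.22 (adjusted p 0.916). CAC replicates 3 and 5 were then left, at 158 and 160.4 TPM, above all 5 NCAC libraries. At 4 wk the libraries high in striatum genes were the highest of their groups. These were CAC replicates 1 and 4 at 189 and 200.3 TPM and Con replicate 2 at 162 TPM. The part of the striatum signal in this was not tested.

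Rims2, a RIM scaffold that binds Rab3 and calcium channels (chr15:39198261-39684372), was called in both means. At 2 wk, Rims2 was at 49.1, 37.4, 37.5 and 41.2 TPM in CAC, 38.9, 37.5, 34.9, 39.5 and 38.8 in NCAC, and 33.4, 35.8, 35.6, 31.2 and 38.5 in Con. At 4 wk, Rims2 was at 42.4, 37.2, 39.5, 43.3 and 42.7 TPM in CAC, 33.9, 34.2, 31.1, 33.9 and 35.6 in NCAC, and 39.8, 40.6, 37.4, 37 and 37.4 in Con. The NCAC libraries at 4 wk were below all CAC and all Con libraries. At 6 wk, Rims2 was at 37.7, 37, 46.8, 45 and 36.2 TPM in CAC, 32.4, 41.7, 33.6 and 30.1 in NCAC, and 39.2, 38.1, 35.1, 41.8 and 31.9 in Con. At 8 wk, Rims2 was at 31.3 to 42.3 TPM (median 38.1, n = 7) in CAC, 33.4, 39, 33.4, 33.1 and 32.4 in NCAC, and 32.9, 32.8, 34.9, 34.4 and 32.2 in Con. At these times the groups overlapped. CAC minus NCAC was positive at all 4 times (0.12, 0.28, 0.23 and 0.14), and the mean was 0.19 ± 0.039 (log2 scale, SE, adjusted p = 0.000846). It passed in all 13 other settings and in all 40 fits that left out 1 library. Against Con the mean was 0.15 ± 0.039 (log2 scale, SE, adjusted p = 0.00391), lost with 2, 4 and 6 wk alone (0.0563). Rims1 was called in no comparison.

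Unc13a encodes Munc13-1, which primes docked vesicles (chr8:71624417-71671757). At 2 wk, Unc13a was at 126, 127, 108 and 130.4 TPM in CAC, 124, 127, 116, 132 and 129 in NCAC, and 123, 119, 125, 119.5 and 125 in Con. At 4 wk, Unc13a was at 103, 121, 132, 86.1 and 125 TPM in CAC, 128, 113, 118, 119.5 and 134 in NCAC, and 117, 119.7, 126, 128 and 118 in Con. The groups overlapped. At 6 wk, Unc13a was at 112, 98.5, 117, 105 and 105 TPM in CAC, 131, 119, 117 and 124 in NCAC, and 104, 124, 120.3, 130 and 120.5 in Con. At 8 wk, Unc13a was at 98.5 to 119.5 TPM (median 108, n = 7) in CAC, 118, 117, 99, 124 and 119.7 in NCAC, and 114, 128, 118, 114 and 114 in Con. All CAC libraries at 6 wk were below all NCAC libraries, the nearest pair by less than the rounding of these values, and CAC overlapped NCAC at 8 wk. Averaged over the times Unc13a was lower in CAC than in NCAC, at 113.3 and 121.7 TPM (log2 difference -0.11, SE 0.036, adjusted p = 0.0343), and CAC minus Con was -0.09 ± 0.036 (log2 scale, SE, adjusted p = 0.0562). The call was lost in 5 of 13 other settings and in 8 of 40 fits that left out 1 library, those without CAC 2 wk replicate 4, CAC 4 wk replicate 4, NCAC 4 wk replicate 5, CAC 6 wk replicate 2, NCAC 6 wk replicate 1 or 4, or NCAC 8 wk replicate 4 or 5 (adjusted p up to 0.0741). With the GC and length trend removed Unc13a was also called lower in CAC than in Con in the mean, by 0.13 on the log2 scale. Unc13b was called in no comparison.

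Erc2, a scaffold of the ELKS family (chr14:27622428-28478537), was at 129.5 to 145 TPM (median 134, n = 7) in CAC, 136, 116, 118, 130 and 109.8 in NCAC, and 115, 126, 108, 116 and 114 in Con at 8 wk. CAC was above Con without overlap, narrowly, and the means were 135 ± 5.48 TPM (SD, n = 7) and 116 ± 6.48 TPM (SD, n = 5) (log2 difference 0.22, SE 0.076, adjusted p = 0.047). At 2 wk, Erc2 was at 126, 159.6, 148 and 125 TPM in CAC, 131, 172, 132, 139 and 138 in NCAC, and 157, 133, 126, 114 and 129 in Con. At 4 wk, Erc2 was at 128, 166, 139.5, 132 and 125 TPM in CAC, 149.7, 131, 116, 136 and 154 in NCAC, and 147, 118, 147, 149 and 142 in Con. At 6 wk, Erc2 was at 139, 122, 158, 123 and 142 TPM in CAC, 152, 126, 128 and 129 in NCAC, and 138, 134, 139, 131 and 136 in Con. No injection group stood apart at these times. The call was lost in 9 of 12 fits that left out 1 library, those without CAC 8 wk replicate 1, 2, 4, 6 or 7 or Con 8 wk replicate 1, 3, 4 or 5 (adjusted p up to 0.124), and in 6 of 12 other settings, among them median-of-ratios scaling, voom and the GC and length trend removed (0.197).

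Pclo encodes piccolo, a giant scaffold protein (chr5:14514918-14863459). It was lower in Con at 8 wk than in Con at 2 wk and was called in no comparison between injection groups. At 2 wk, Pclo was at 62.2, 75.9, 56.8 and 63.7 TPM in CAC, 59.7, 74.3, 61.6, 65.2 and 65.2 in NCAC, and 69.4, 62.1, 61, 51.6 and 56.2 in Con. At 8 wk, Pclo was at 52.2 to 56.2 TPM (median 55.5, n = 7) in CAC, 51.4, 52.4, 53.8, 53.7 and 54.6 in NCAC, and 48.1, 51.9, 51.5, 46 and 49.7 in Con. The Con ranges overlapped between the times (log2 difference -0.27, SE 0.08, adjusted p = 0.0245), and at 8 wk all CAC libraries were above all Con libraries although that difference did not pass (log2 difference 0.15, SE 0.074, adjusted p = 0.166). At 4 wk, Pclo was at 54.3, 69.2, 60.4, 55.3 and 55.6 TPM in CAC, 58.6, 53.9, 48.5, 56.8 and 66.9 in NCAC, and 69.3, 51.7, 59.5, 58.9 and 64.4 in Con. At 6 wk, Pclo was at 56, 51.2, 63.4, 53.8 and 56.9 TPM in CAC, 64, 66.4, 54.5 and 53.1 in NCAC, and 65, 61, 56.9, 59.4 and 50.1 in Con. The groups overlapped. Pclo is long and GC-poor (22457 bases, 46.4% GC), its level went with the libraries' length slope at r = 0.80, and with that trend removed the Con time difference was -0.06 (adjusted p 0.709). It was also lost with median-of-ratios scaling and voom, and without Con 2 wk replicate 1, 2 or 3 or Con 8 wk replicate 1, 4 or 5 (up to 0.125). Bsn, which encodes bassoon, was called in no comparison.

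Neurexins are presynaptic adhesion proteins that bind partners across the cleft. Nrxn3 (chr12:88722876-90334935) was at 60.8 to 69.9 TPM (median 65.6, n = 7) in CAC, 63, 58.6, 59.9, 60.3 and 55.5 in NCAC, and 54.3, 59.3, 52.9, 54.1 and 53.3 in Con at 8 wk. CAC lay above Con without overlap, with means of 66.1 ± 3.48 TPM (SD, n = 7) and 54.8 ± 2.6 TPM (SD, n = 5) (log2 difference 0.27, SE 0.07, adjusted p = 0.00988). At 2 wk, Nrxn3 was at 82.1, 81.5, 70 and 71.3 TPM in CAC, 63.9, 80.7, 58.3, 74.8 and 71.2 in NCAC, and 71.6, 70.1, 68.2, 53.7 and 61.4 in Con. At 4 wk, Nrxn3 was at 70.7, 69.2, 70.9, 77 and 69 TPM in CAC, 68, 61.8, 54.5, 63.9 and 80.9 in NCAC, and 74.6, 71.5, 69.5, 69.9 and 69.8 in Con. At 6 wk, Nrxn3 was at 70.2, 59.8, 74.1, 68.9 and 67.1 TPM in CAC, 73, 66.7, 58.5 and 59 in NCAC, and 67.5, 68.5, 66.9, 68 and 61.7 in Con. CAC and Con overlapped at these times. Con at 8 wk was itself below Con at 2 wk (log2 difference -0.24, SE 0.075, adjusted p = 0.0364), in a comparison that shares those Con libraries. Nrxn3 was the member whose level went most closely with the length slope (r = 0.86), and the part of this in the difference was not tested. The 8 wk call passed in all 12 other settings and all 12 fits that left out 1 library. Its log2 difference went from 0.27 to 0.18 (adjusted p 0.0216) with the GC and length trend removed. The Con time difference did not pass there (0.359), nor with median-of-ratios scaling or voom, and was lost without Con 2 wk replicate 1, 2 or 3 or Con 8 wk replicate 1, 3, 4 or 5 (up to 0.14). In the mean of the 4 times, CAC minus Con was 0.13 ± 0.038 (log2 scale, SE, adjusted p = 0.00963) and CAC minus NCAC 0.12 ± 0.038 (log2 scale, SE, adjusted p = 0.022), and both were lost without the 6 libraries that stood apart and with 2, 4 and 6 wk alone. In all, the first was lost in 3 of 13 other settings (adjusted p up to 0.262) and the second in 5 (up to 0.331), among them removal of the GC and length trend alone and marker covariates.

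Nrxn2 (chr19:6418731-6544169) was called only over time in the controls. At 2 wk, Nrxn2 was at 22.3, 31.3, 30.5 and 44.8 TPM in CAC, 38.6, 21.7, 24.7, 42.3 and 40.4 in NCAC, and 32, 33.1, 37.9, 46.6 and 38.3 in Con. At 8 wk, Nrxn2 was at 36.6 to 52.5 TPM (median 47, n = 7) in CAC, 49.1, 44.5, 40.8, 46.4 and 49.9 in NCAC, and 51.6, 50.1, 51.3, 50.9 and 49.6 in Con. Con at 8 wk was above Con at 2 wk without overlap (log2 difference 0.44, SE 0.14, adjusted p = 0.0325). At 4 wk, Nrxn2 was at 34.7, 43.1, 49.2, 49 and 46 TPM in CAC, 37.5, 43.5, 42.9, 43.9 and 44.5 in NCAC, and 40, 39, 45.1, 41.4 and 43.1 in Con. At 6 wk, Nrxn2 was at 43.6, 35.9, 42, 52.4 and 37.9 TPM in CAC, 49.4, 46.1, 42.5 and 43 in NCAC, and 33.2, 48.6, 42.6, 44.4 and 47.9 in Con. The injection groups overlapped at every time. Nrxn2 is GC-rich (60.9%), its level went with the GC slope at r = 0.85, and with the trend removed the time difference was 0.30 (adjusted p 0.0952). It was lost without Con 2 wk replicate 1, 2 or 3 or Con 8 wk replicate 1, 3, 4 or 5 (up to 0.122).

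Synj1 encodes synaptojanin 1, the lipid phosphatase that lets clathrin fall off retrieved vesicles (chr16:90936092-91011308). At 8 wk, Synj1 was at 239 to 286 TPM (median 268, n = 7) in CAC, 245, 230.2, 247, 237 and 219 in NCAC, and 217, 233, 216, 225 and 227 in Con. Every CAC library was above every Con library, and the means were 266 ± 16.2 TPM (SD, n = 7) and 224 ± 7.07 TPM (SD, n = 5) (log2 difference 0.25, SE 0.07, adjusted p = 0.0157). At 2 wk, Synj1 was at 249.6, 308, 254 and 238 TPM in CAC, 239.7, 287, 233, 267 and 270.4 in NCAC, and 250.1, 234, 253, 220 and 232 in Con. At 4 wk, Synj1 was at 214, 296, 258, 278 and 241 TPM in CAC, 250, 234, 204, 236 and 263 in NCAC, and 278, 207, 259, 259 and 260.3 in Con. At 6 wk, Synj1 was at 272, 243, 292, 284 and 272 TPM in CAC, 262, 252, 231 and 232 in NCAC, and 272, 267, 257, 264 and 214 in Con. CAC overlapped both other groups at these times. The 8 wk call held in all 12 fits that left out 1 library and with the GC and length trend removed (0.16, adjusted p 0.0414), and was lost with the replicate block (0.0683). The mean of the 4 times was 0.13 ± 0.038 (log2 scale, SE, adjusted p = 0.0137) against Con and 0.11 ± 0.038 (log2 scale, SE, adjusted p = 0.0339) against NCAC. The first was lost in 3 of 13 other settings, with the GC and length trend removed, with 2, 4 and 6 wk alone and with the trend and the 6 libraries both removed (up to 0.272). The second was lost in 7 of 13 other settings and in 9 of 40 fits that left out 1 library, those without CAC 2 wk replicate 2, NCAC 2 wk replicate 1 or 3, CAC 4 wk replicate 2 or 4, NCAC 4 wk replicate 3, NCAC 6 wk replicate 3 or 4, or NCAC 8 wk replicate 5 (up to 0.0841).

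**Figure D4:**
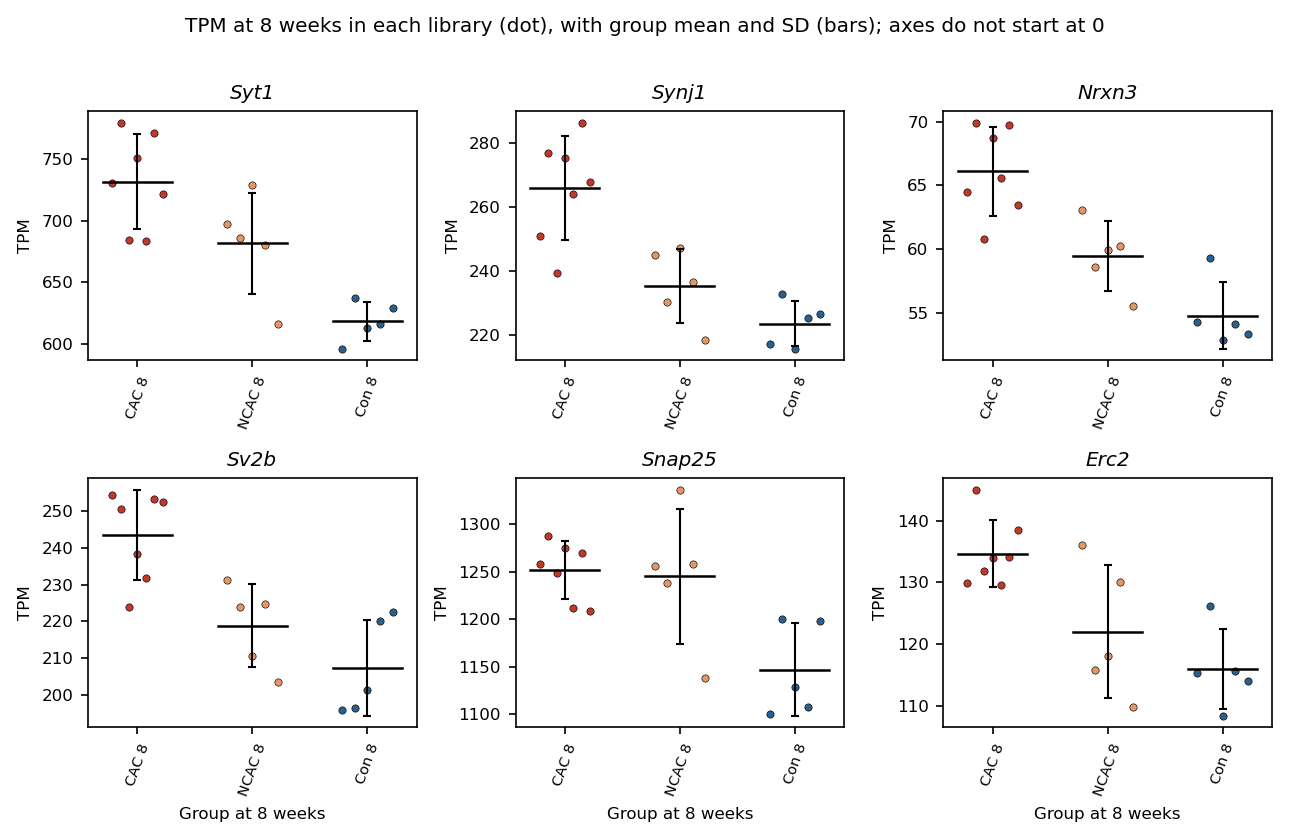
TPM (vertical axes, which do not start at 0) of Syt1, Synj1, Nrxn3, Sv2b, Snap25 and Erc2 in each library at 8 wk (points) for CAC, NCAC and Con, with group means and SDs as bars. For all 6 genes the 7 CAC points lie above the 5 Con points, for Syt1 683.9 to 779.6 TPM against 596.2 to 637.7 TPM, and the NCAC points overlap the CAC points. All 6 were drawn because they were called in this comparison. Vamp1, also called, is not shown, and its CAC and Con ranges overlapped. The share of all tested genes that separate in this way is not given here.

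Transcript composition went with these differences. Levels of some members called at 8 wk went with the length slope over the 60 libraries. This r was 0.86 for Nrxn3, 0.76 for Syt1, 0.72 for Erc2, 0.66 for Synj1 and 0.64 for Sv2b. It was 0.21 for Vamp1, 0.18 for Snap25 and -0.03 for Bzrap1. For the other members called between injection groups it was 0.63 for Vamp2, 0.59 for Rims2, 0.26 for Syt7, 0.25 for Unc13a and 0.16 for Otof. Over the 37 members, the CAC minus Con difference at 8 wk was more positive for GC-poor transcripts (r = -0.42 with percent GC, and -0.19 over 15409 tested genes with a GC value). The NCAC minus Con difference at 8 wk showed the same with r = -0.62, and Con at 8 wk minus Con at 2 wk the opposite, with r = 0.69 (0.46 over all genes). These comparisons share the 5 Con 8 wk libraries, which had length slopes of -0.106 to -0.0914 per doubling of length, whereas the CAC 8 wk libraries had -0.0547 to 0.0319. After a spline of GC content and length was removed from every library, 25 of 37 members rather than 29 had a positive CAC minus Con difference at 8 wk. Before removal, 9534 of all 15608 tested genes had a positive one. The median of the members went from 0.07 to 0.03, and the median of all genes from 0.05 to 0.02. Bzrap1, Nrxn3 and Synj1 were then called, 8.11% of the members beside 9.4% of all genes, and Syt1, Sv2b, Snap25, Vamp1 and Erc2 were not. In the mean of the 4 times, 6 members were then called higher in CAC than in Con (Bzrap1, Nrxn3, Otof, Rims2, Syt7 and Vamp1) and 2 lower (Rab3c and Unc13a), 21.6% of the members beside 17.8% of all genes. Whether composition accounts for any of these differences was not tested.

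**Figure D5:**
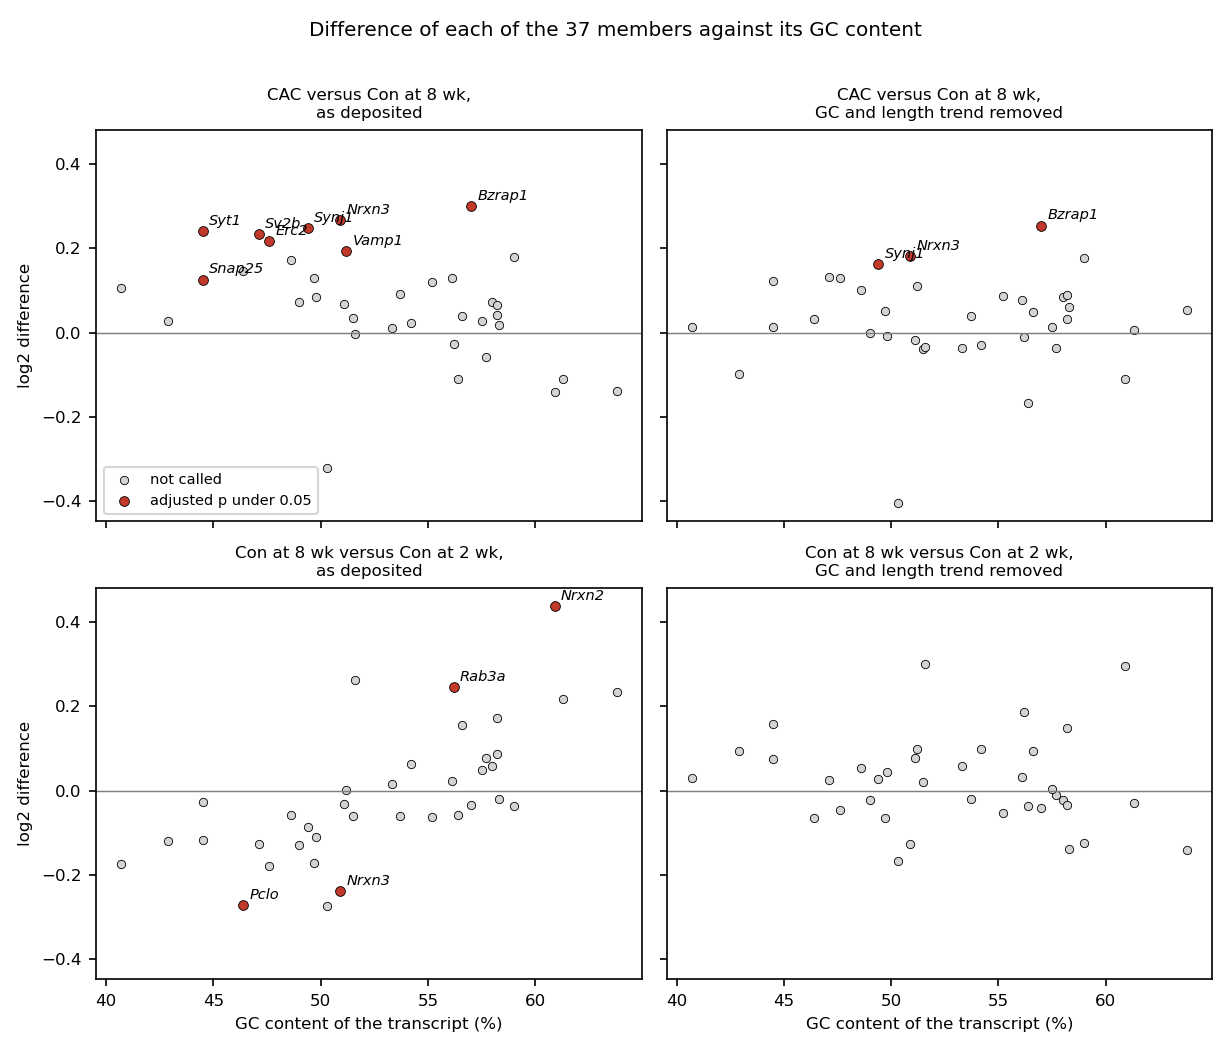
Log2 difference of the 37 members (vertical axes) against the GC content of the transcript in percent (horizontal axes), for CAC against Con at 8 wk and for Con at 8 wk minus Con at 2 wk, as deposited and with the GC and length trend removed. As deposited, the first slopes down (r = -0.42) and the second up (r = 0.69).

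Genes of some marker lists were also called at 8 wk. The summed TPM of the 10 neuron cell body and cytoskeleton genes was 3272 to 3649 (median 3483) in CAC and 3595 to 3952 (median 3724) in Con, with none called higher and 1 lower. The 9 hippocampal excitatory markers summed to 2645 to 2936 (median 2840) in CAC and 2461 to 2825 (median 2571) in Con, with 2 called higher. The 8 interneuron genes summed to 899.8 to 1114 in CAC and 1152 to 1228 in Con, with 1 called lower, and the 7 oligodendrocyte genes to 1158 to 2194 (median 1389) and 1255 to 2062 (median 1773), also with 1 lower. The 5 endothelium genes summed to 156.5 to 238.5 (median 216) in CAC and 166.6 to 188.3 (median 180.3) in Con, with 2 called higher and 1 lower. The 7 astrocyte genes summed to 2545 to 3165 (median 2717) and 2438 to 2597 (median 2538), with 1 higher and 1 lower. Except for the interneuron sums, the CAC and Con ranges of all these lists overlapped. No gene of the thalamus, striatum, cortex layer, microglia, choroid plexus or blood lists was called. The part of these shifts in the members' differences was not tested. Without the 6 libraries that stood apart, which include 1 CAC 8 wk library, 10 members (27%) were called at 8 wk, all higher, beside 23.2% of all genes, 2925 higher and 698 lower.

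Libraries also varied together within groups. Of 666 pairs of members, whose deviations from the group means had a median r of 0.23 over the 60 libraries, the closest was Syt1 with Synj1 (r = 0.92, Spearman's rho 0.88, and r = 0.90 without the 2 libraries farthest from the median). Vamp2 went with Syt11, at r = 0.82 and rho 0.80. Otof had its highest r with Bzrap1 (r = 0.55, rho 0.53) and its most negative with Unc13a (r = -0.52, rho -0.50). All pairs come from the same libraries and share their depth and composition, so these values describe the libraries and carry no test.

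A list of 54 further genes of the same compartment, also chosen with earlier results known, included other syntaxins, Rab3 regulators, calcium channels, endocytic adaptors and synucleins. At 8 wk, 8 of the 54 (14.8%) were higher in CAC than in Con and none lower, a share near the 14.5% of all genes called. Differences were positive for 40 of 54, beside 9534 of 15608 for all genes. The median of the 54 was 0.07, beside 0.07 for the 37 members and 0.05 for all genes. The 6 with the smallest p were Rab3gap1 (0.20 ± 0.05, adjusted p 0.00874), Syt16 (0.22 ± 0.057, adjusted p 0.00967), Sypl (0.22 ± 0.061, adjusted p 0.014), Picalm (0.20 ± 0.056, adjusted p 0.017), Mctp1 (0.35 ± 0.1, adjusted p 0.0176) and Cacna1b (0.18 ± 0.055, adjusted p 0.0209). Rab3gap1 is a regulator of Rab3, Picalm an adaptor that brings VAMP proteins into clathrin pits, and Cacna1b the pore of the N-type calcium channel. In the mean of the 4 times, 7 were higher and 1 lower in CAC than in Con, and 4 were higher and 1 lower in CAC than in NCAC. Between 2 and 8 wk in Con mice, 2 were higher and 8 lower.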

How the data were processed

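The deposited values were TPM, which the authors computed from hippocampal RNA-seq reads (TruSeq stranded mRNA kit, NovaSeq sequencer, per the labels' protocols) and deposited as 1 table of 47643 symbols by 60 libraries. The build was mm10, per the submitters' processing notes; the aligner, counter, annotation and use of strand were not given in the sources used here. The extraction text also mentions an LLC line at 3 weeks, which matches no group. Whole reads could be recovered from the TPM steps for 24227 of 24227 detected genes (tolerance 0.02 reads), giving 32388193 to 42046784 reads per library.

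The 15608 genes that reached 1 TPM in 4 or more libraries were fitted as log2(TPM + 0.5) with limma 3.58.1 in R 4.3.3, with an intensity trend, 12 group means and 1 estimate of spread over all 60 libraries. P-values are two-sided with Benjamini-Hochberg adjustment over all 15608 genes and a threshold of 0.05, and fold changes are on the scale of TPM + 0.5. GC content came from GENCODE M21 for 15409 genes (98.7%). Length was the one recovered together with the reads from the TPM steps, not the annotated length. The trend over GC content and length was removed with natural splines of 5 degrees of freedom. Alternatives covered pseudocounts, filters, median-of-ratios scaling, voom on recovered reads, a replicate block, marker covariates, the 6 libraries that stood apart and each library in turn. The fit was also run on simulated reads with known changes. These had a common mean profile, a fixed dispersion and no GC, length or tissue differences between libraries. That run therefore cannot show how the fit handles such differences. Promoters came from RefSeq (GRCm38.p6).

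Members, lists and comparisons were chosen with earlier results of these data known. Values in every library are given for each member called in at least 1 comparison and, for a role with none, for the member with the smallest p in CAC against Con at 8 wk. Of the other presynaptic genes, up to 6 called at 8 wk are named.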

Additional observations from a re-analysis of the deposited data

Results flagged for a closer look

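For the 17 members whose values are given per library, 204 group values were checked for a library lying far from the rest of its group by Dixon's test at the 95% level, and 21 were marked; chance alone marks about 5% of groups.

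Con 4 wk replicate 2, high in striatum genes, was low for Snap25 (1083 TPM, others 1204 to 1243), Erc2 (118 TPM, others 142 to 148.8) and Synj1 (207.3 TPM, others 258.6 to 277.7). The other marked libraries with a high striatum signal were CAC 2 wk replicate 1 for Vamp1 (68.99 TPM, others 50.21 to 51.63), CAC 4 wk replicate 1 for Rab3a (424.8 TPM, others 511.2 to 538.1) and CAC 4 wk replicate 4 for Nrxn3 (76.99 TPM, others 69.02 to 70.93). CAC 2 wk replicate 1 was also high in thalamus genes. The part of the striatum or thalamus signal in these values was not tested.

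Con 6 wk replicate 5 was marked 4 times: low for Syt1 (598.6 TPM, others 723.8 to 735.5), Nrxn3 (61.73 TPM, others 66.87 to 68.49) and Synj1 (213.7 TPM, others 257.1 to 272.4), and high for Rab3a (590 TPM, others 482.9 to 513.5).

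NCAC 2 wk replicate 2 was high for Snap25 (1312 TPM, others 1133 to 1183) and Erc2 (171.5 TPM, others 131.2 to 138.8). NCAC 8 wk replicate 3 was low for Unc13a (99.03 TPM, others 116.8 to 123.7) and Syn1 (332.9 TPM, others 401.8 to 426.5).

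Single marks were NCAC 4 wk replicate 3 for Snap25 (1115 TPM, others 1222 to 1234), NCAC 4 wk replicate 1 for Nrxn2 (37.46 TPM, others 42.87 to 44.51), CAC 6 wk replicate 3 for Sv2b (283.7 TPM, others 220.3 to 237.1) and NCAC 6 wk replicate 1 for Erc2 (152.5 TPM, others 125.8 to 128.9). At 8 wk they were Con replicate 4 for Otof (6.759 TPM, others 4.522 to 4.88), Con replicate 2 for Nrxn3 (59.32 TPM, others 52.87 to 54.32) and NCAC replicate 2 for Rims2 (39 TPM, others 32.38 to 33.37).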

How the results depend on the processing

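Counts of called members are given here as the number under each other setting. In CAC against Con at 2 wk the 1 call became 0 with a pseudocount of 1, no filter, median-of-ratios scaling, only the compared groups, the replicate block, the GC and length trend removed, marker covariates, voom, without the 6 libraries that stood apart, and with the last and trend removal together. At 4 wk the count was 1 (lower) with median-of-ratios scaling and with voom, and at 6 wk 2 (lower, Rab3c and Syt11) with the trend and the 6 libraries both removed. At 8 wk the 8 calls became 4 with median-of-ratios scaling, 4 with voom, 3 with the replicate block and 3 with the trend removed, and were 6 (4 higher; Sv2c and Unc13a lower) with the trend and the 6 libraries both removed; the median difference of all genes was 0.05, and -0.01 with median-of-ratios scaling. Of all genes called at 8 wk, 1757 were higher and 499 lower, against 664 of 1403 higher with that scaling and 713 of 1597 with voom.

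In CAC against NCAC at 4 wk the 2 calls became 0 with no filter, only the compared groups, covariates, without the 6 libraries and with both removed, and 1 with voom. At 6 wk the count was 1 without the 6 libraries and 2 with both removed; at 8 wk it was 4 (Bzrap1, Doc2b, Synj1 and Syt7) and 3. The mean counts were 3 (Con) and 4 (NCAC) with 2, 4 and 6 wk only, and 5 (Rab3c and Unc13a lower) and 4 (Unc13a lower) with both removed. Against Con, median-of-ratios scaling and voom each gave 11, with Syt5, Rab3c and Unc13a lower. Con at 8 wk against Con at 2 wk gave 10 with only those groups, 0 with the trend removed and 0 with both removed. With both removed, the 8 wk CAC minus Con difference changed sign for Snap25 (-0.002) and Rab3a (0.002). The cause was not tested.

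Leaving out 1 library at a time, counts ranged from 0 to 4 (2 wk), 0 to 2 (4 wk), 0 to 0 (6 wk) and 4 to 10 (8 wk) in CAC against Con. They ranged from 0 to 0, 0 to 2, 0 to 1 and 0 to 2 in CAC against NCAC, and 0 to 0 in every NCAC against Con comparison and in the change from 2 to 8 wk. For the means they were 8 to 10 (Con) and 5 to 10 (NCAC), and 0 to 6 for Con over time. At 8 wk the count was 5 without CAC replicate 2, 4 or 6 or Con replicate 4, 4 without Con replicate 1 or 3, and 10 without CAC replicate 3; at 2 wk it was 4 without CAC replicate 4 or 5, 2 without Con replicate 1 and 0 without CAC replicate 1 or 2 or Con replicate 3, 4 or 5.

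In no comparison was every same-numbered pair of libraries correlated above 0.1 in its deviations (range -0.28 to 0.35), so the numbers were not taken as pairs; why the replicate block lowered the 8 wk count was not tested. Added after seeing the data were the mean of 2, 4 and 6 wk and the joint removal of the trend and the 6 libraries. Precision is limited by 4 to 7 libraries a group.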
